A study of Drosophila melanogaster with 12 samples.

Results

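Distinct small RNA sequences of 23 to 29 nt with A at position 10 and no T at position 1 were collected from 12 Drosophila melanogaster libraries. Sequences sharing 15 nt with 2S rRNA were left out. The sequences are called 10A-not-1U sequences here; T stands for U, as in the deposited lists. The rule selected 11258 sequences from 84000 distinct sequences of 23 to 29 nt and from 95922 listed sequences of 20 to 30 nt. Another 39866 sequences had T at position 1 and no A at position 10. The 2S rRNA sequence was read as the most abundant 30 nt sequence of the Aub library from krimp heterozygous ovaries, with 2282758 reads, and it is printed because it sets what was left out. The RefSeq gene table (Release 6) places the 2S rRNA gene 2SrRNA:CR45864 on chromosome X.
2S rRNA: tgcttggactacatatggttgagggttgta

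Piwi-interacting RNAs (piRNAs) guide the PIWI proteins Piwi, Aubergine (Aub) and Argonaute 3 (AGO3) against transposons in the fly ovary. In the ping-pong cycle, Aub loaded with mostly antisense piRNAs that begin with U cuts a transposon transcript across from guide positions 10 and 11, and the new 5′ end enters AGO3. The secondary piRNA therefore tends to carry A at position 10, and the 5′ ends of both partners overlap by 10 nt. Piwi works in the nucleus, in germ cells and in somatic follicle cells, whereas Aub, AGO3 and Krimper, a Tudor domain protein of the perinuclear nuage, belong to the germline.

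The study asked what Krimper does in this pathway. Ovaries of adult krimp heterozygous females gave libraries of total small RNA and of RNA bound to Piwi, Aub and AGO3, and krimp mutant ovaries gave total, Piwi and Aub libraries. AGO3-bound RNA was also sequenced from aub mutant ovaries and from Oregon R, a wild-type strain. A further 3 immunoprecipitates came from the ovarian somatic cell line OSC, in which krimp had been knocked down and myc-Piwi, myc-Aub or myc-AGO3 was expressed ectopically. The labels do not name the krimp and aub alleles, and one label of the krimp mutant Aub library also carries the word control. The myc-Piwi complex was recovered with a myc antibody, the myc-Aub complex with the Aub antibody used on ovaries, and the myc-AGO3 complex with an AGO3 antibody other than that used on ovaries. No OSC library without the krimp knockdown and no AGO3 library from krimp mutant ovaries was analysed here. Small RNA libraries do not measure krimp or aub mRNA, so the genotypes were not checked.

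Each group had 1 library. No difference below therefore has a replicate check, no test across libraries was possible, and the 95% intervals are exact Clopper-Pearson intervals that cover counting error only. Every list begins at 100 reads, so that an unlisted sequence may have up to 99 reads. Listed reads ran from 116014 in OSC myc-Aub to 24979879 in the krimp heterozygous total library, and the number of listed sequences from 580 to 49916. Reads of 23 to 29 nt without 2S rRNA, called piRNA-size reads below, ran from 95991 in Oregon R AGO3 to 16847260 in krimp heterozygous Piwi. Long lists hold more low-count sequences, so counts of sequences are not compared between libraries without the share.

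With all sequences kept, the read share of 10A-not-1U sequences was highest in AGO3 of krimp heterozygous ovaries, of piRNA-size reads and of all listed reads (46.2%). Counting distinct piRNA-size sequences, Oregon R AGO3 was higher, with 53.0% against 48.3%. Without adapter-like sequences, which are described last, the Oregon R share of piRNA-size reads was 54.9%, against 54.1% in krimp heterozygous AGO3. In krimp heterozygous ovaries, AGO3 held 5339 of them with 3615821 reads, which was 54.1% of its piRNA-size reads (95% interval 54.0 to 54.1). Aub of the same ovaries held 452 with 154014 reads, or 11.7% (11.7 to 11.8), and Piwi held 2789 with 788926 reads, or 4.68% (4.67 to 4.69). The total library held 3266 with 1579890 reads, or 11.8% (11.7 to 11.8). The AGO3 share exceeded the Aub share by 42.4 percentage points, far beyond counting error. Oregon R AGO3 held 210 of these sequences, making up 43.6% (43.3 to 43.9) of its piRNA-size reads but 5.14% of all its listed reads.

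In krimp mutant ovaries the share in Aub was higher. Mutant Aub held 720 of these sequences with 540021 reads, or 22.5% (22.4 to 22.6) of its piRNA-size reads, 10.8 percentage points above heterozygous Aub. Mutant total RNA held 1448 with 1280874 reads, or 12.9% (12.9 to 12.9), and mutant Piwi held 2123 with 633291 reads, or 5.52% (5.51 to 5.54). These exceeded the heterozygous shares by 1.15 and 0.839 percentage points, but the direction turned when the share was taken of all listed reads. On that scale total RNA went from 6.32% to 6.19% and Piwi from 4.19% to 4.03%, while Aub still went up, from 3.86% to 10.04%. The share depends both on how many reads lack T at position 1 and on how many of those carry A at position 10. Among Aub reads without T at position 1, A at position 10 went from 49% to 46.6%. By reads, the higher Aub share thus went with more reads lacking T at position 1. Counting distinct Aub sequences without T at position 1, A at position 10 instead went up, from 52.6% to 63.5%. By reads, A at position 10 among those without T at position 1 went from 37.5% to 19.1% in total RNA. In Piwi it went from 28.0% to 29.4%.

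The aub mutant AGO3 library held 196 of these sequences with 56961 reads, or 26.7% (26.5 to 26.9) of its piRNA-size reads, which was 16.9 percentage points below Oregon R AGO3. The difference was 26.3 points without adapter-like sequences, which are described last, and 4.76 points among sequences with at least 300 reads. Both lists were short, and piRNA-size reads made up 213390 of 4573900 listed reads in the aub mutant library. Of all listed reads, the 10A-not-1U sequences took 1.25% there and 5.14% in Oregon R.

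In the somatic cell line the shares were low for Piwi and higher for the germline proteins. OSC myc-Piwi held 15 of these sequences with 2194 reads, or 1.47% (1.41 to 1.54). OSC myc-Aub held 31 with 6760 reads, or 6.47% (6.32 to 6.62), and OSC myc-AGO3 held 80 with 18160 reads, or 14.5% (14.3 to 14.7). Of all listed reads the order of the last 2 turned, with 1.43% for myc-Piwi, 5.83% for myc-Aub and 4.65% for myc-AGO3. Among reads without T at position 1, A stood at position 10 in 19.0% for myc-Piwi, 24.2% for myc-Aub and 22.9% for myc-AGO3. The differences in share of piRNA-size reads thus went mostly with the number of reads lacking T at position 1. The antibody differed among these 3 libraries, so protein and antibody cannot be told apart.

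**Figure D1:**
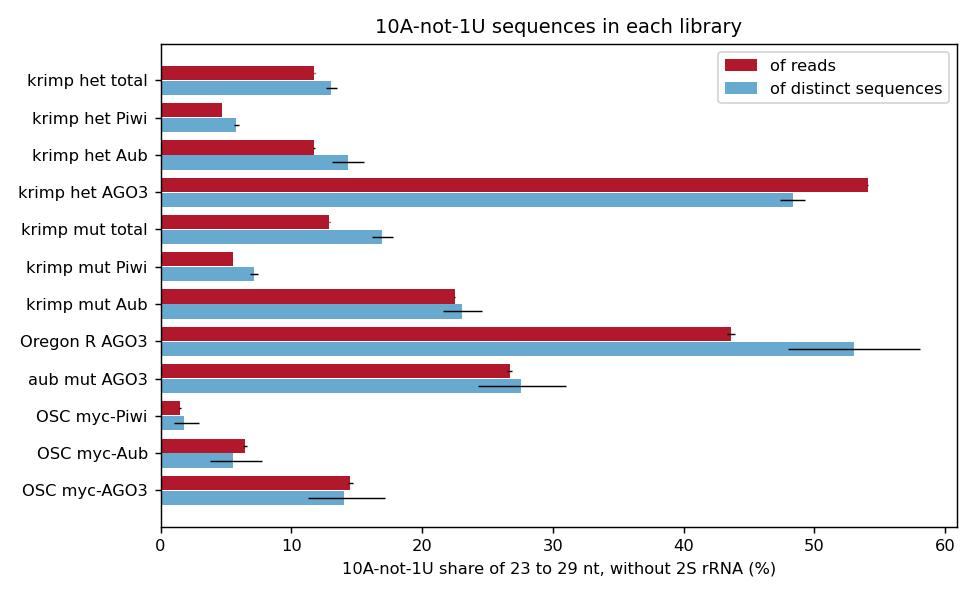
Share of reads (red) and of distinct sequences (blue) of 23 to 29 nt, without 2S rRNA, that were 10A-not-1U sequences, in percent, for each of the 12 libraries. Bars start at 0 and black lines are exact 95% intervals for counting error; the krimp heterozygous AGO3 bar reaches 54.1% of reads and the OSC myc-Piwi bar 1.47%.

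A at position 10 was most frequent among reads without T at position 1 in the krimp heterozygous and Oregon R AGO3 libraries. In krimp heterozygous AGO3, A stood there in 83.8% of the reads that began with another base and in 62.6% of the reads that began with T. The corresponding pair was 49% and 46.0% in heterozygous Aub, 28.0% and 27.2% in heterozygous Piwi, and 37.5% and 25.8% in heterozygous total RNA. In mutant Aub A at position 10 was rarer among reads without a leading T (46.6%) than among those with one (73.5%), and the order was the same in Oregon R AGO3 (56.4% and 67.7%), OSC myc-AGO3 (22.9% and 27.0%) and OSC myc-Piwi (19.0% and 23.2%). In aub mutant AGO3 the pair was 45.6% and 39.0%, and in OSC myc-Aub 24.2% and 20.7%. The mutant Piwi pair was 29.4% and 28.1%, close to the heterozygous pair. Mutant total RNA had 19.1% and 12.4% by reads, but 26.5% and 28.6% counting distinct sequences.

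The reads were spread over few or many sequences depending on the library. In heterozygous AGO3 the 10 leading sequences held 16.2% of 10A-not-1U reads, and the 241 most abundant sequences held 50%. In heterozygous Piwi, 492 sequences were needed to reach that share and the 10 leading sequences held 6.74%. Mutant Aub was the most concentrated of these, with 38.6% in its 10 leading sequences and 50% within 22 sequences, against 26.7% and 55 sequences in heterozygous Aub. Many sequences shared a 5′ end and differed in their 3′ end. The 5339 sequences of heterozygous AGO3 had 2904 leading stretches of 20 nt, or 1.84 sequences for each.

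The leading sequence of heterozygous AGO3 was 26 nt long and began with G. It had 146599 reads in heterozygous AGO3, 52884 in heterozygous total RNA, 5979 in heterozygous Aub and 338 in heterozygous Piwi. In krimp mutant ovaries it had 36493 reads in Aub, 4310 in total RNA and 327 in Piwi, and no other library listed it. As a share of piRNA-size reads it was 0.455% in heterozygous Aub and 1.52% in mutant Aub, but 0.394% in heterozygous and 0.0435% in mutant total RNA. The third sequence of heterozygous AGO3, 24 nt long with 85896 reads, matched its leading 24 nt and was a shorter form of it.

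The second sequence of heterozygous AGO3 was 25 nt long, began with C and had 144100 reads there. It had 15784 reads in heterozygous and 222 in mutant total RNA, 4410 in heterozygous and 8574 in mutant Aub, 182 in heterozygous Piwi and 190 in Oregon R AGO3. Its share of piRNA-size reads was thus 52.5-fold lower in mutant total RNA, the lowest ratio among the sequences listed in both total libraries with at least 1000 reads in either. In Aub it was about level, at 0.336% in heterozygous and 0.357% in mutant ovaries.

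Mutant Aub was led by a 24 nt sequence beginning with G that had 36991 reads, against 1397 in heterozygous Aub and 22796 in heterozygous AGO3. Rank 3 was held by a sequence 25 nt long and beginning with C, with 30367 reads, against 4864 in heterozygous Aub and 50043 in heterozygous AGO3. The leading sequence of heterozygous Aub behaved in the opposite way. It was 24 nt long, began with C and had 8804 reads in heterozygous Aub and 7970 in heterozygous AGO3, but mutant Aub did not list it, so its share there was at least 162-fold lower.

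Both total libraries were led by the same pair of 23 nt sequences beginning with A. The first had 75623 reads in heterozygous and 67663 in mutant ovaries, and the second 60273 and 48010. No immunoprecipitate listed either of them, from ovaries or from OSC. Together they made up 8.60% of the 10A-not-1U reads in heterozygous and 9.03% in mutant total RNA. Compared from the 5′ end without gaps, they differed from each other at 13 of 23 positions. Whether they are piRNAs was not tested, since no genome was used to place them.

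Most 10A-not-1U sequences were listed in a single library. Of the 11258 sequences, 7470 (66.4%) were listed once, 2709 in 2 libraries and 727 in 3. The widest listing was that of a 27 nt sequence beginning with A, which 11 libraries listed with 108 to 1435 reads and which only Oregon R AGO3 lacked. In OSC myc-Aub it had 1039 reads, 0.995% of piRNA-size reads. Its 26 nt form, without the last base, had 1334 reads in that library and was listed in 9.

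Aub and AGO3 of krimp heterozygous ovaries shared most of what Aub held. AGO3 listed 384 of the 452 Aub sequences (85.0%), and these held 92.9% of the 10A-not-1U reads of Aub. Of the other piRNA-size sequences of Aub, AGO3 listed 56.0%. The same 384 were 7.19% of the AGO3 sequences and held 41.0% of their reads, whereas Aub listed 26.6% of the other piRNA-size sequences of AGO3. Because the AGO3 list was longer, the 452 most abundant of each were compared as well, and 172 (38.1%) were the same. Piwi and Aub of the same ovaries shared 98 sequences, which was 21.7% of those in Aub and 3.51% of those in Piwi. For the other piRNA-size sequences these shares were 41.1% and 2.45%. At equal list length they had 43 of 452 (9.51%) in common.

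Mutant Aub overlapped more with heterozygous AGO3 than with heterozygous Aub by number, but the lists differ in length. Heterozygous AGO3 listed 418 of its 720 sequences (58.1%), with 85.2% of their reads, and these were 7.83% of the AGO3 sequences. For the other piRNA-size sequences the corresponding shares were 38.5% of those in mutant Aub and 16.2% of those in AGO3. Heterozygous Aub listed 154 of the 720 (21.4%), with 67.8% of the reads, and these were 34.1% of the heterozygous Aub sequences. Here the other piRNA-size sequences gave 26.9% of those in mutant Aub and 23.9% of those in heterozygous Aub. With each list cut to its 452 most abundant sequences, mutant Aub shared 139 (30.8%) with heterozygous Aub and 105 (23.2%) with heterozygous AGO3. By listing in heterozygous immunoprecipitates, 110 of the mutant Aub sequences (37.8% of the reads) were in both Aub and AGO3, 35 (29.4%) in all 3, and 260 (17.3%) in AGO3 only. Another 250 (10.9% of the reads) were in none of the 3.

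Overlaps with the short lists were small in number. Oregon R and aub mutant AGO3 had 34 sequences in common, 16.2% of those in Oregon R and 17.3% of those in the aub mutant. For the other piRNA-size sequences these shares were 37.1% and 13.4%. Heterozygous AGO3 listed 88 of the 210 Oregon R sequences (41.9%) and 68 of the 196 aub mutant sequences (34.7%). These were 1.65% and 1.27% of its own list. Of the other piRNA-size sequences, heterozygous AGO3 listed 28.0% of those in Oregon R and 22.5% of those in the aub mutant. In OSC, myc-Aub listed 7 of the 15 myc-Piwi sequences (46.7%) and myc-AGO3 listed 1 (6.67%). Of the other piRNA-size sequences of myc-Piwi they listed 31.4% and 5.85%. The leading OSC myc-AGO3 sequence, 26 nt long with 1271 reads, was listed in no other library.

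**Figure D2:**
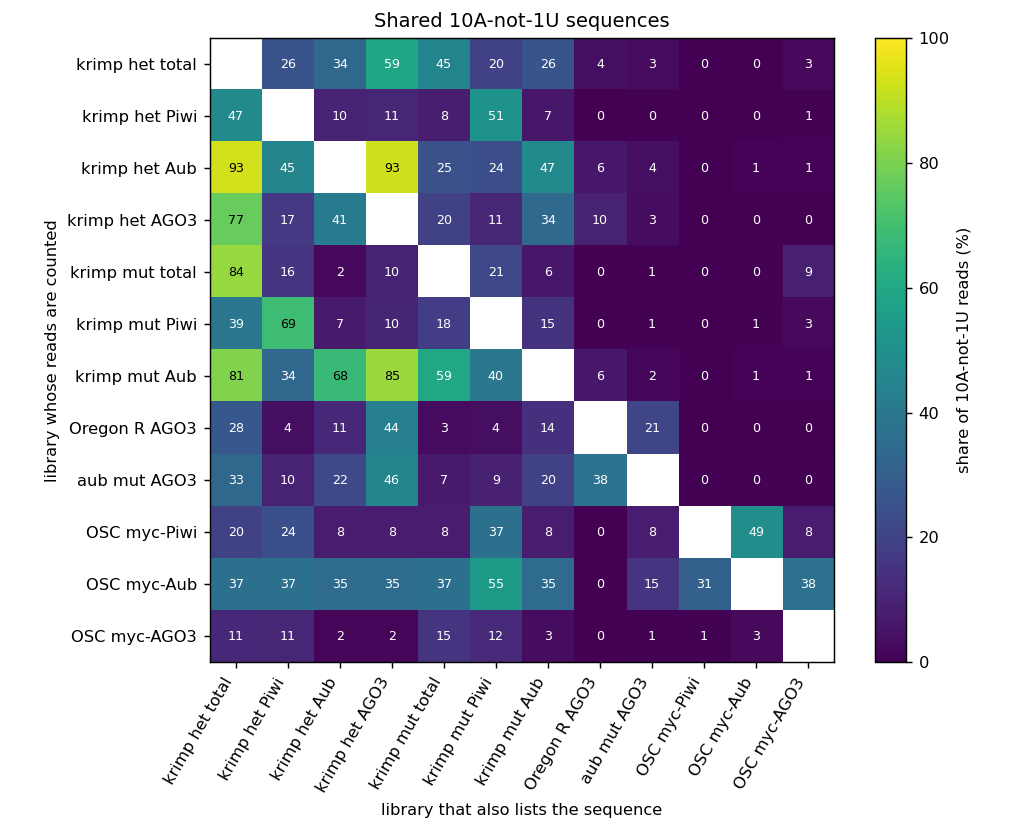
Share of the 10A-not-1U reads of each library (rows) that came from sequences also listed in another library (columns), in percent, with the value printed in each cell and the colour scale running from 0 to 100%. Heterozygous Aub reads were mostly listed in heterozygous AGO3 (92.9%), whereas mutant total reads were rarely listed there (10.05%); columns with long lists can share more.

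The total libraries were compared with the sequences listed in immunoprecipitates. In heterozygous ovaries 2415 of 3266 sequences (73.9%) were listed in a heterozygous immunoprecipitate, with 69.9% of the reads. In mutant ovaries 175 of 1448 (12.1%) were listed in one of these heterozygous immunoprecipitates, with 21.3% of the reads. For the other piRNA-size sequences the read shares were 79.6% and 52.0%. Counting listings in any immunoprecipitate of either krimp genotype, the 10A-not-1U read shares were 72.8% and 31.4%. Using Piwi and Aub of the library's own genotype alone, they were 45.2% in heterozygous and 23.9% in mutant total RNA. No mutant AGO3 library entered these counts.

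As a share of piRNA-size reads, sequences listed in a heterozygous immunoprecipitate made up 8.23% in heterozygous and 2.75% in mutant total RNA, 2.997-fold lower. Listing in the heterozygous genotype favours sequences that were abundant in it, so part of this difference is built into the choice. Sorted by listing in mutant Piwi or Aub instead, the values were 4.29% and 3.08%, 1.39-fold lower, and by listing in either genotype 8.57% and 4.06%, 2.11-fold lower. Of the heterozygous sequences behind the first value, 2253 were not listed in the mutant, and granting each of them 99 reads raised the mutant share from 2.75% to 4.88%, 1.68-fold below the heterozygous share. Sequences listed in no heterozygous immunoprecipitate made up 3.54% in heterozygous and 10.2% in mutant total RNA, 2.87-fold higher. Those not listed in mutant Piwi or Aub made up 7.47% and 9.83%, 1.32-fold higher. The other piRNA-size sequences moved in the same directions. Those listed in a heterozygous immunoprecipitate went from 70.3% to 45.3% of piRNA-size reads, and those listed in none from 18.0% to 41.8%. Others not listed in mutant Piwi or Aub went from 37.9% to 40.8%. Lower amounts of a kind of piRNA and a smaller share of cells that make it cannot be told apart in whole-ovary RNA.

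**Figure D3:**
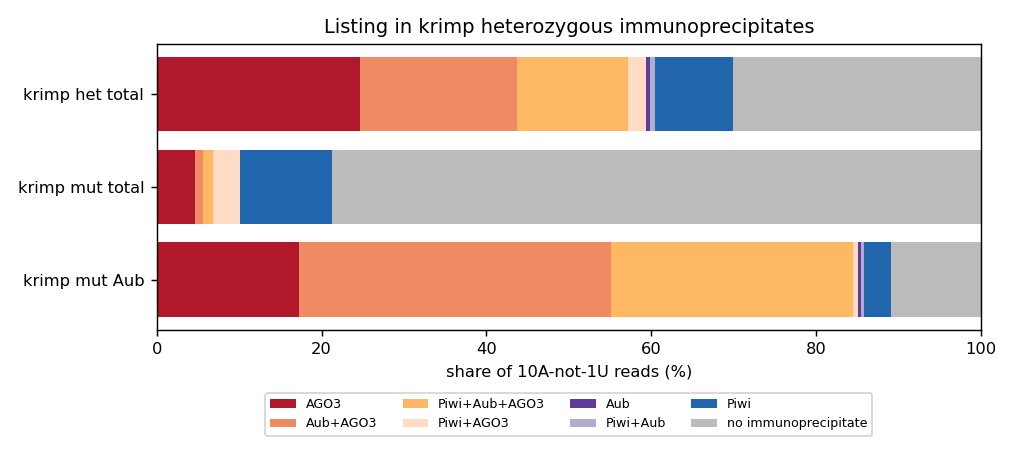
Share of 10A-not-1U reads, in percent, by the krimp heterozygous immunoprecipitates (Piwi, Aub, AGO3 or their combinations) that listed the same sequence, for krimp heterozygous total, krimp mutant total and krimp mutant Aub. The grey segment, listed in none, covers 30.1% of reads in heterozygous total, 78.7% in mutant total and 10.9% in mutant Aub.

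Sequence by sequence, the shares of piRNA-size reads were compared for those listed in both libraries of a pair, and a more than 2-fold difference was counted. In total RNA, 636 sequences were listed in both genotypes, of which 390 (61.3%) were higher in the mutant and 60 (9.43%) lower. Among all piRNA-size sequences listed in both, 43% were higher and 16.4% lower. The median log2 ratio was 1.43, against 0.49 for the other piRNA-size sequences. A listing in both libraries is itself a selection, and 2630 of the heterozygous sequences were not listed in the mutant.

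The sequences with the highest ratios in total RNA were listed in no immunoprecipitate. A 25 nt sequence beginning with A went from 915 to 25315 reads, 37.5-fold higher as a share. A 27 nt sequence beginning with A went from 413 to 9830 reads, 32.2-fold higher. A 26 nt sequence beginning with A was higher in Piwi as well: it had 12696 reads in heterozygous and 31244 in mutant total RNA, and 2351 in heterozygous and 10687 in mutant Piwi. OSC myc-AGO3 listed it with 251 reads.

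In Aub, 154 sequences were listed in both genotypes, of which 53 (34.4%) were higher in the mutant and 28 (18.2%) lower, where 24.9% and 33.6% of all piRNA-size sequences were higher and lower. The median log2 ratio was 0.39, against −0.41 for the others. As shares of all listed reads, 69 were higher and 19 lower, since that scale shifted every log2 ratio of this pair by 0.44. A 24 nt sequence beginning with G went from 366 to 18661 reads, 27.9-fold higher, and had 15877 reads in heterozygous AGO3. A 25 nt sequence beginning with G went from 426 to 17271 reads, 22.2-fold higher, and had 4801 in heterozygous AGO3. The lowest ratio was that of a 26 nt sequence beginning with G, from 1042 to 360 reads, 5.29-fold lower.

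In Piwi, the counts lay close to those of all piRNA-size sequences. Of 947 listed in both genotypes, 469 (49.5%) were higher in the mutant and 107 (11.3%) lower, where 47.8% and 14% of all piRNA-size sequences were. The median log2 ratio was 0.97, against 0.89 for the others. The leading heterozygous Piwi sequence, 28 nt long and beginning with G, went from 9067 to 503 reads, and the second, its 27 nt form, from 6233 to 339, which was 12.5-fold lower as a share. The leading mutant Piwi sequence, 26 nt long and beginning with A, had 4922 reads in heterozygous and 11521 in mutant Piwi.

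Between AGO3 and Aub of heterozygous ovaries, 119 of 384 shared sequences (31.0%) were higher in AGO3 and 132 (34.4%) lower, where 10.9% of all piRNA-size sequences were higher and 64.3% lower. The median log2 ratio was −0.02, against −1.99 for the other sequences. As shares of all listed reads, 214 were higher and 45 lower, a scale that shifted each log2 ratio by 1.38. A 23 nt sequence beginning with C had 29326 reads in AGO3 and 124 in Aub, 46.4-fold higher in AGO3. At the other end, a 26 nt sequence beginning with C had 323 reads in AGO3 and 1861 in Aub, 29.3-fold lower.

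Mutant Aub and heterozygous AGO3 shared 418 sequences, of which 187 (44.7%) were higher in mutant Aub and 88 (21.1%) lower, where 54.7% and 14.6% of all piRNA-size sequences were. As shares of all listed reads, 95 were higher and 145 lower. A 25 nt sequence beginning with A showed the lowest ratio, with 21509 reads in AGO3 and 134 in mutant Aub, 57.6-fold lower. A 28 nt sequence beginning with C showed the highest, with 135 reads in AGO3 and 2705 in mutant Aub, 55.8-fold higher.

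Of the 34 sequences listed in aub mutant and Oregon R AGO3, 7 (20.6%) were higher in the mutant and 12 (35.3%) lower, where 13.6% and 45.6% of all piRNA-size sequences were. As shares of all listed reads, 2 were higher and 22 lower. The leading aub mutant sequence, 29 nt long and beginning with A, had 3267 reads there, 439 in Oregon R AGO3 and 166 in heterozygous AGO3. Those of rank 2 and 3 were 27 nt long and began with C, with 3046 and 1881 reads in the aub mutant against 124 and 103 in Oregon R, and they differed from each other at 3 of 27 positions. Against krimp heterozygous AGO3, 62 of 68 shared sequences (91.2%) were higher in the aub mutant and 2 (2.94%) lower, as were 89.1% and 2.72% of all piRNA-size sequences. As shares of all listed reads, 16 were higher and 21 lower.

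The lengths differed between the proteins of krimp heterozygous ovaries. In heterozygous Piwi most 10A-not-1U reads were 26 nt long (29.0%), and the mean was 26.3 nt. In heterozygous Aub the mode was 26 nt (32.8%) with a mean of 25.6 nt, and in heterozygous AGO3 it was 24 nt (29.4%) with a mean of 24.8 nt. The other piRNA-size reads of these libraries had means of 26.3, 25.6 and 24.7 nt, so the length was that of the library and not of the 10A-not-1U sequences alone.

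Between genotypes, the length of the 10A-not-1U reads of Piwi barely moved and that of Aub and total RNA became shorter. In Aub the 23 and 24 nt reads together went from 21.9% to 32.4%, and the mode went from 26 nt to 24 nt, with 26.5% of reads at 24 nt. The other piRNA-size reads of Aub did not follow in this share, with 23.2% in heterozygous and 22.4% in mutant ovaries at 23 and 24 nt. Their mean length still went down, from 25.58 to 25.46 nt, against 25.58 to 25.39 nt for the 10A-not-1U reads. The 24 nt leader with 36991 reads alone made up 6.85% of the 10A-not-1U reads of mutant Aub. In total RNA the mode went from 24 nt to 23 nt and the 23 and 24 nt reads from 46.6% to 56.4%, as the other reads did (47.7% to 57.2%).

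The AGO3 libraries from outside the krimp series were longer. Oregon R AGO3 peaked at 29 nt (32.3% of reads) and aub mutant AGO3 at 27 nt (34.6%), with means of 27.0 and 26.7 nt. The upper limit of 29 nt cut into the Oregon R distribution, in which 61 sequences of 29 nt were kept and 50 of 30 nt fell just outside. At the lower limit, heterozygous AGO3 had 906 sequences of 23 nt and 374 of 22 nt, and heterozygous total RNA had 457 and 318. For Piwi the lower limit mattered little, with 27 sequences of 23 nt and 10 of 22 nt.

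**Figure D4:**
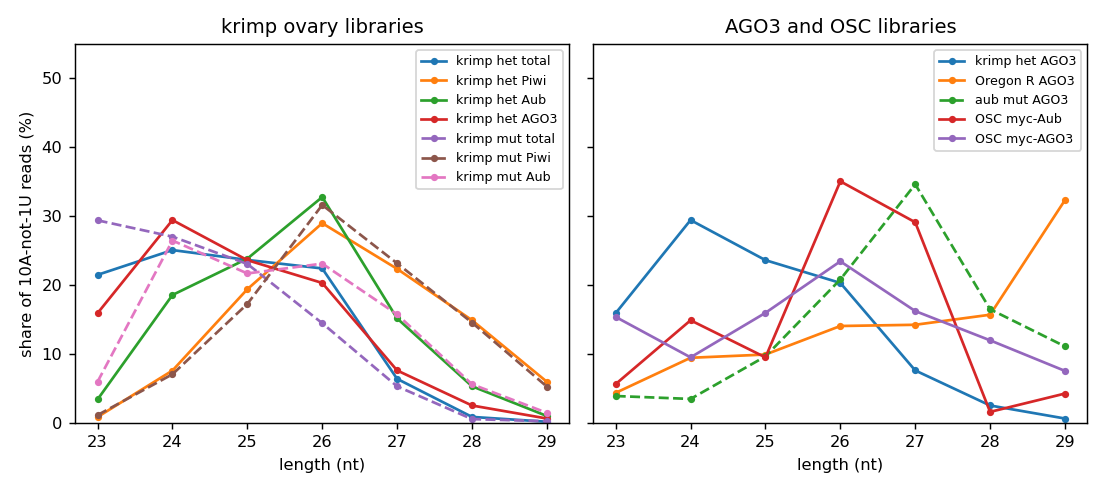
Share of 10A-not-1U reads at each length from 23 to 29 nt, in percent, for the krimp ovary libraries (left) and for AGO3 and OSC libraries (right); mutant libraries are dashed. Heterozygous AGO3 peaks at 24 nt, Piwi at 26 nt in both genotypes and Oregon R AGO3 at 29 nt, while mutant Aub has a peak at 24 nt that heterozygous Aub lacks.

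The base at position 1, which the rule left free among A, C and G, also differed. C led in heterozygous AGO3 with 46.5% of reads, followed by G with 28.9% and A with 24.5%. C led in heterozygous Aub too (52.1%), whereas G led in mutant Aub with 52.6% of reads, against 24.6% in heterozygous Aub. Counting distinct sequences, C led in mutant Aub as well, with 39.4% against 36.0% for G. In mutant total RNA A led with 60.5% of reads, against 41.0% in heterozygous total RNA. In aub mutant AGO3 C made up 58.1% and G 8.24%, whereas in Oregon R AGO3 they made up 50.2% and 23.2%.

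Around the fixed A, position 9 showed the largest difference in heterozygous AGO3, Aub and Piwi from sequences that had neither T at position 1 nor A at position 10. In heterozygous AGO3, T stood at position 9 in 22.8% of the 10A-not-1U sequences and in 46.7% of the others, and G in 28.1% and 12.7%. Heterozygous Aub gave 23.5% and 39.1% for T and 34.7% and 17.9% for G. Heterozygous Piwi gave 17.5% and 28.9% for T and 32.4% and 19.6% for G, so the difference was not limited to ping-pong proteins. The last base was C in 41.1% of the heterozygous AGO3 sequences and in 68.6% of the Oregon R ones.

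A 10 nt partner was defined as a piRNA-size sequence whose leading 10 nt were the reverse complement of the leading 10 nt of a 10A-not-1U sequence. By construction such a partner begins with T and lacks A at position 10, so 10A-not-1U sequences cannot pair with each other. As background, the same match was made for windows shifted by 1 to 10 nt into the sequence that likewise ended in A and did not begin with T. Longer lists of candidates give higher backgrounds, and the excess over the background depends on list length too. Within heterozygous Aub it was 28.5 percentage points with the full lists and 9.18 with 196 sequences and 300 candidates. Values of full lists are therefore not directly comparable between libraries.

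In heterozygous ovaries, 1159 of 5339 AGO3 sequences (21.7%, 95% interval 20.6 to 22.8) had a partner in Aub, over a background of 1.14%. The intervals of partner shares treat distinct sequences as independent, but sequences with the same leading 10 nt have the same partners. They are therefore too narrow. The 1159 AGO3 sequences had 281 different leading 10 nt stretches, and merging 3′ variants gave 15.5%. The sequences with a partner held 43.1% of the 10A-not-1U reads of AGO3. Within AGO3 itself 18.8% had a partner (background 1.58%). In Piwi 23.7% had one, but with a background of 21.3%. Aub sequences had a partner in AGO3 in 33.6% of cases (background 2.16%) and within Aub in 29.4% (background 0.973%). From the partner's side, 628 of the 1448 Aub sequences with T at position 1 and no A at position 10 (43.4%) matched an AGO3 10A-not-1U sequence, in 2687 pairs.

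The strongest pair by product of reads joined a 23 nt sequence beginning with C, with 18554 reads in AGO3 and 174 in Aub, to a 25 nt partner beginning with T, with 12425 reads in Aub and 9836 in AGO3. The next joined the 25 nt sequence that had rank 4 in AGO3, with 50043 reads there and 4864 in Aub, to a 25 nt partner with 3951 reads in Aub and 1451 in AGO3. In mutant Aub the latter sequence had 30367 reads and its partner 3704. The leading AGO3 sequence and the second one each had 1 partner in heterozygous Aub.

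Sequences with a partner differed from those without one in their first base. Among AGO3 sequences with a partner in Aub, 18.6% began with A, against 37.6% of those without, and their median was 249 reads against 209. The direction was the same in mutant Aub (9.17% against 31.3% with A) and in aub mutant AGO3 (20.7% against 45.7%). In the aub mutant, 77.6% of the partnered sequences began with C, against 38.4% of the rest.

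In mutant Aub, 218 of 720 sequences (30.3%, interval 26.9 to 33.8) had a partner within the same library, over a background of 2.94%. The 218 sequences had 43 different leading 10 nt stretches. The heterozygous Aub value was 29.4% with the full lists. With 196 sequences and 300 candidates per library, the values were 17.3% in mutant and 9.18% in heterozygous Aub, and with 450 and 3000 they were 33.8% and 28.9%. The 25 nt sequence beginning with G that was 22.2-fold higher in the mutant had 14 partners in mutant Aub, and the 24 nt leader had 7. The partners were not spread evenly over overlaps other than 10 nt: at 14 nt the value reached 10.3%.

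Total RNA differed strongly between genotypes. In heterozygous total RNA 964 of 3266 sequences (29.5%, interval 28.0 to 31.1) were partnered within the library, over a background of 10.7%. In mutant total RNA 26 of 1448 (1.80%, interval 1.18 to 2.62) had one, over a background of 1.31%. The mutant list was shorter, so both were cut to the 450 most abundant 10A-not-1U sequences and the 3000 most abundant candidates. Then 63 of 450 (14%) had a partner in heterozygous and 0 of 450 in mutant total RNA, with backgrounds of 1.65% and 0%. Cutting the lists does not make their content alike. Of the full lists, 26.1% of heterozygous and 87.9% of mutant sequences were in no heterozygous immunoprecipitate. MicroRNA and structural RNA sequences were not removed, and whether they affect the mutant value was not tested.

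Within the Piwi libraries there was no excess at 10 nt. In heterozygous Piwi 16.1% of sequences had one within the library, below the background of 20.3%, and in mutant Piwi 9.75%, below 11.98%. In heterozygous AGO3, 2.44% (interval 1.90 to 3.08) of the heterozygous Piwi sequences had a partner, over a background of 1.26% that ranged from 0.158% to 2.14% among the shifts.

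In aub mutant AGO3, 58 of 196 sequences (29.6%, interval 23.3 to 36.5) had a partner within the same library, over a background of 0.2%, and 20.4% had one in krimp heterozygous Aub (background 1.2%). The 58 sequences had 24 different leading 10 nt stretches. The sequences of rank 2 and 3 had 6 partners each in their own library and none in heterozygous Aub. In Oregon R AGO3 0 of 210 had a partner within the library, which allows up to 1.74% by counting error. The Oregon R list was short, and 67.7% of its distinct sequences with T at position 1 had A at position 10. Partners cannot have that A, so the list held few possible partners, whereas aub mutant AGO3 held 204. In krimp heterozygous Aub, 26.7% of the Oregon R sequences had a partner (background 1.21%). With 196 sequences and 300 candidates per library, 20.9% had a partner in aub mutant AGO3, 4.08% in heterozygous AGO3 and 0% in Oregon R AGO3. The 300 candidates were not matched for sequences that can be partners, so these values cannot be set against one another. They were also cut from lists of unlike length, with 712 piRNA-size sequences in aub mutant, 11045 in heterozygous and 396 in Oregon R AGO3.

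**Figure D5:**
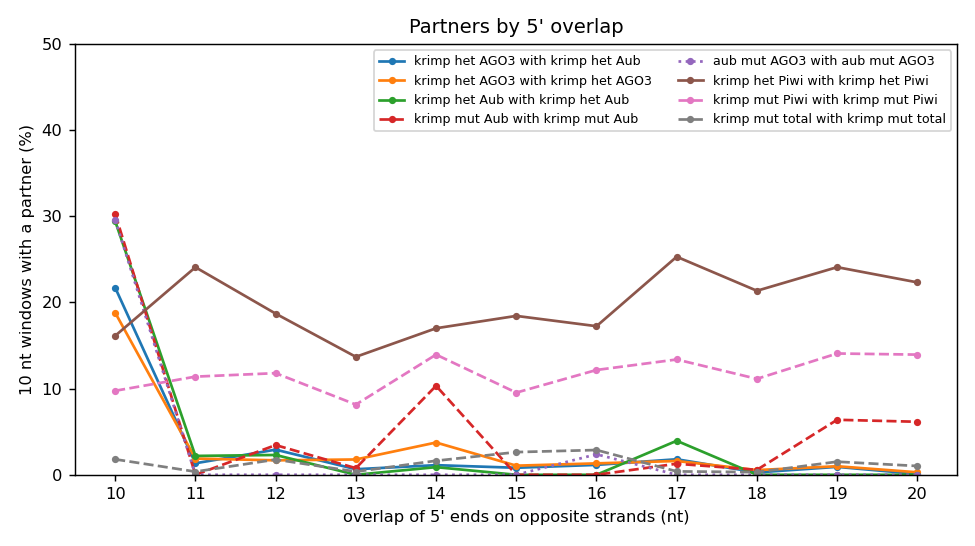
Share of 10 nt windows of 10A-not-1U sequences with a matching 5′ end on the opposite strand, in percent, by the overlap of the 5′ ends from 10 to 20 nt; at 10 nt every sequence gives 1 window, and at 11 to 20 nt those windows that end in A and do not begin with T are used. The lines for Aub and AGO3 of the krimp ovaries and for aub mutant AGO3 stand at 18.8% to 30.3% at 10 nt and at most 10.3% elsewhere, whereas both Piwi lines lie at 10 nt within their range at the other overlaps and mutant total stays below 3%.

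Some sequences in the short lists resembled a library adapter. The leading Oregon R AGO3 sequence, 23 nt long with 786 reads there and 728 in aub mutant AGO3, shared 18 nt with a sequence of OSC myc-AGO3, and those letters are, as far as known, part of the Illumina small RNA 5′ adapter. Sharing 11 nt with that stretch were 7 of the 210 Oregon R sequences (5.63% of 10A-not-1U reads), 7 of the 196 aub mutant sequences (2.74%) and 2 of the 80 OSC myc-AGO3 sequences (4.75%), and none in the other 9 libraries. Among all piRNA-size reads such sequences made up 25.01% in Oregon R and 9.11% in aub mutant AGO3. Without them the aub mutant share of 10A-not-1U reads was 28.6% and the Oregon R share 54.9%.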

How the data were processed

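The files deposited by the authors list, for each of 12 libraries, distinct sequences of 20 to 30 nt and their read counts, not normalized. The lowest count is 100, so sums over a list are not the depth of a library. Per the labels' protocols, RNA of 18 to 29 nt was made into libraries with the TruSeq Small RNA kit. The submitters' processing notes name the genome build dm3. Which aligner and adapter trimming were used is not given in the sources used here.

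Sequences of 23 to 29 nt sharing no 15 nt with 2S rRNA gave the piRNA-size reads, and counts were divided by them. No count model was fitted, since each group had 1 library. Partners were matched over 10 nt, and the scripts were tested on simulated data. Shares have exact 95% intervals for counting error, and those of partner shares treat distinct sequences as independent. Named sequences were the 3 with the most reads in each library and, for each pair of libraries, those with the 2 highest and 2 lowest ratios among sequences listed in both with at least 1000 reads in either; the strongest pairs, the widest listing and other singled-out sequences were chosen after their values were seen. Members and lists were chosen with earlier results of these data known. Alternatives were counting distinct sequences, a minimum of 300 reads, all listed reads as the denominator, weighting by reads, the 300 most abundant sequences, merging 3′ variants by their leading 20 nt, and, chosen after seeing the data, removing adapter-like sequences, lists of equal length and other sets of immunoprecipitates. No genome was used, so sequences were not placed or assigned to transposons. Python 3.11.15, numpy 2.4.6, scipy 1.17.1 and matplotlib 3.10.9 were used.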

Additional observations from a re-analysis of the deposited data

Results flagged for a closer look

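The change from krimp heterozygous to krimp mutant ovaries in the share of 10A-not-1U sequences with a 10 nt partner in their own library, above background, went in opposite directions between library kinds. It was −18.3 percentage points in total RNA, −1.11 in Aub and 1.97 in Piwi, where both genotypes lay below background, at −4.20 and −2.23 percentage points. The sign in Aub depended on list length: with 196 sequences and 300 candidates per library the change was 6.62 percentage points, and with 450 and 3000 it was 2.17. The change in mean length of the 10A-not-1U reads also differed in sign, at −0.286 nt in total RNA, −0.188 nt in Aub and 0.00391 nt in Piwi. With 1 library per group neither difference was tested.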

How the results depend on the processing

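Of 48 alternative values for 15 results, 4 reversed, 38 moved and 6 stayed within counting error. Values from lists of equal length and other sets of immunoprecipitates were not set against counting error. They were counted as moved or reversed whatever their size. Differences in the 10A-not-1U read share are given in percentage points. With all listed reads as the denominator, mutant minus heterozygous turned to −0.135 in total RNA and −0.165 in Piwi and was 6.18 in Aub; aub mutant minus Oregon R AGO3 was −3.90, OSC myc-Aub minus myc-Piwi 4.40 and myc-AGO3 minus myc-Piwi 3.23. Counting each distinct sequence once gave 3.88 in total RNA, 1.36 in Piwi, 8.73 in Aub, 34.0 for AGO3 minus Aub, −25.5 for aub mutant minus Oregon R, 3.75 for myc-Aub and 12.3 for myc-AGO3. A minimum of 300 reads gave, in the same order, 1.20, 0.696, 12.1, 45.3, −4.76, 9.39 and 14.4; the last 2 had no myc-Piwi sequence left. Removing adapter-like sequences, chosen after seeing the data, gave −26.3 for aub mutant minus Oregon R and 12.6 for myc-AGO3. For partner shares in percent, weighting by reads gave 43.1 for AGO3 in Aub, 40.6 for heterozygous Aub, 47.7 for mutant Aub and 39.9 for aub mutant AGO3. The 300 most abundant sequences gave 9.67, 7, 18.3 and 20.9, and merging 3′ variants gave 15.5, 24.1, 21.3 and, for aub mutant AGO3, 23.3. With equal lists, chosen after seeing the data, the mutant minus heterozygous partner share above background turned from −1.11 points in Aub to 6.62 (196 sequences, 300 candidates) and 2.17 (450, 3000), and kept its sign in total RNA (−6.12 and −12.4) and Piwi (0.786 and 1.09). The heterozygous over mutant share of sequences listed in immunoprecipitates in total RNA went from 2.997-fold to 2.11-, 1.39- and 2.47-fold with the other sets of immunoprecipitates: either genotype, mutant Piwi and Aub, and heterozygous Piwi and Aub. Why these values moved was not tested. The planned removal of microRNA and structural RNA sequences was not run, since no reference sequences were used. No paired analysis was possible because each group had 1 library. The minimum of 100 reads per listed sequence limits every count of shared or partnered sequences, most of all in the short Oregon R, aub mutant and OSC lists.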
